A study of Mus musculus with 3 samples.

Results

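The immediate early and NR4A genes described here are 10 genes chosen by name: the orphan nuclear receptors Nr4a1, Nr4a2 and Nr4a3, the AP-1 subunits Fos, Fosb, Jun and Junb, the zinc finger factor Egr1, the ATF family factor Atf3 and Ier2. Each has a row in the deposited count table of every library, so 10 of 10 were found among 55401 mouse genes. The tables come from mouse heart cells, labelled adult cardiomyocytes, dispensed into single nanowells of the iCELL8 platform after tamoxifen treatment, with 1 library from each of 3 days. The day 1 and day 2 libraries carry the genotype label INO80_OE, and the day 3 library carries both INO80_OE and Ctrl with no file that assigns its wells to either. Myh6-MCM, in which a cardiomyocyte myosin promoter drives a Cre that tamoxifen activates, appears in the title together with Ino80fl/fl, whereas the design text speaks of Ino80 induction. Tamoxifen is shared by all groups. Neither the age nor the number of the mice nor the dose is stated in those labels, and day 0, which the design names, was not analysed here.

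Immediate early genes are transcribed within minutes of a stimulus without the need for new protein, mainly through factors already bound at their promoters such as CREB and the serum response factor with its partners. Their products are themselves transcription factors: FOS and JUN proteins pair to form AP-1, EGR1 binds GC-rich elements, and NR4A receptors act without a known endogenous ligand. In heart tissue they respond to adrenergic stimulation, stretch and ischaemia, and enzymatic dissociation of tissue is known to induce them. No sample here shows the level before dissociation, so a response in the animal and one during cell isolation cannot be told apart.

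The 10 genes lie on 8 chromosomes of mm10, and their positions follow GENCODE M21. Nr4a1 is on chromosome 15 at 101254269 to 101274795, Nr4a2 on chromosome 2 at 57106830 to 57124003, and Nr4a3 on chromosome 4 at 48045153 to 48086447. Fos is on chromosome 12 at 85473890 to 85477273, Fosb on chromosome 7 at 19302696 to 19310051, and Atf3 on chromosome 1 at 191170296 to 191218039. Jun is on chromosome 4 at 95049034 to 95052222, Junb on chromosome 8 at 84974484 to 84978718, and Ier2 on chromosome 8 at 84661331 to 84662852. Exons of Jun overlap Junos and exons of Junb overlap Prdx2, each on the opposite strand, so reads of these pairs may not be told apart. Junb and Ier2 carry another identifier version in the tables than in this annotation.

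Promoter sequence from RefSeq on GRCm38.p6 was searched for 8 of the 10 genes, over the 150 bases before the annotated start. Ier2 had no window in the source, and Egr1 was left out of the search, so nothing is said here of their motifs. The CRE core motif, TGACG on either strand, is the core of the element bound by CREB and ATF factors. It occurred in 7 of the 8 members searched, all but Jun, and in 13.3% of 32851 windows of the same length. The 8 windows were 58.0% to 83.3% G and C, and the background windows were not matched for this content. A TATA box, TATAAA on either strand, occurred only in Fos among the 8 and in 7.57% of all windows. The full CRE TGACGTCA, the AP-1 site TGANTCA, the NR4A element AAAGGTCA and the CArG box were searched on both strands and were in 0 of 8 windows, against 1.36%, 4.24%, 0.785% and 0.916% of all windows. The core motif is contained in the full CRE. The windows of 2 NR4A genes and 2 AP-1 genes, each 5′ to 3′ and ending at the base before the start, are shown because Nr4a1, Nr4a2 and Junb were apart between the day 3 wells described below and Fos was not. Capitals mark matches to the core motif or the TATA box.
Nr4a1, chr15:101266696-101266845, plus strand: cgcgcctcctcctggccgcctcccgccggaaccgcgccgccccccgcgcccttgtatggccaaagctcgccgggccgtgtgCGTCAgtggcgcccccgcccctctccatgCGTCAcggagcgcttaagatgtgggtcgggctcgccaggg
Nr4a2, chr2:57124004-57124153, minus strand: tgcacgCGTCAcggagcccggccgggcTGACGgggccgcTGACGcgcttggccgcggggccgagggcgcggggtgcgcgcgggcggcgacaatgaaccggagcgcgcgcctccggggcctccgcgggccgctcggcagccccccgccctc
Fos, chr12:85473740-85473889, plus strand: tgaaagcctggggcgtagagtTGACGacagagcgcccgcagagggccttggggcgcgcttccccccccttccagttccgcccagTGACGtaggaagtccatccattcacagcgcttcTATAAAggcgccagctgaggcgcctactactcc
Junb, chr8:84978749-84978898, minus strand: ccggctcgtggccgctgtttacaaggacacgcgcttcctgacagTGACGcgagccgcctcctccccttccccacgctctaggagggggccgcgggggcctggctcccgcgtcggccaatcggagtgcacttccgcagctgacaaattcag
The Nr4a1 window lies inside the annotated gene, before a later start, and overlaps no exon. The windows of Nr4a3, Fosb and Atf3, which count among the 7, overlap annotated exons of their own genes and so are not wholly upstream sequence. Nr4a2 holds 3 core motifs, Nr4a1 and Fos hold 2 each, and Junb holds 1. The motif was thus present both in Fos and in the 3 genes that were apart from it.

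Levels are given as CPM, counts of a gene per 1000000 counts of nuclear-encoded genes summed over the wells of a group, with exact Poisson 95% intervals where printed. Such intervals, and those of log2 ratios and of shares of wells, reflect the counting of reads alone, and as no molecular identifiers are described, several reads may stem from 1 molecule. With 1 library a day there are no replicates, no test was made, and wells are not replicates. A gene is called apart where the levels of both groups differ at least 2-fold, and the share of all genes with a mean of at least 10 CPM that are apart is given as the background. Most values rest on the compartment: wells outside clusters named for a non-cardiomyocyte type, which held 582, 630 and 882 wells on days 1, 2 and 3. Kept wells numbered 1225, 1059 and 1092. Endothelial-like wells, which lie outside the compartment, numbered 381, 190 and 12. Their ventricular cardiomyocyte markers summed to 100068, 106794 and 114929 CPM. The compartment is thus an unlike part of each library, and the bearing of this on the differences between days was not tested. The total counts of the libraries were 487461107, 452070922 and 484369736. Libraries share 247 to 278 well barcodes in pairs, which are position codes of the platform. The median mitochondrial share of compartment wells was 40.7%, 43.6% and 21.3%, and its part in the differences between days was tried only through wells of 25 to 35% mitochondrial counts.

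Ino80, the ATPase of the INO80 chromatin remodelling complex and the gene named in the labels, was at 2851 CPM in the day 1 compartment, 4941 CPM on day 2 and 1191 CPM on day 3. On day 3 its level differed widely among wells: 399 compartment wells held at least 1000 CPM, 437 held under 100 CPM and 46 lay between. These high and low wells are defined by the measured Ino80 count, not by a genotype label. Summed Ino80 was 3034 CPM in the high wells and 18.1 CPM in the low wells. Ino80 was itself among the genes used for clustering, and 397 of the 399 high wells fell in 1 cluster while 428 of the 437 low wells fell in another.

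Among the NR4A genes, Nr4a2 showed the clearest difference between the day 1 library and the later ones. Nr4a2, a constitutively active receptor best known from dopaminergic neurons, was at 62.1 CPM (60.9 to 63.4) in the day 1 compartment, 12.5 CPM (11.9 to 13.0) on day 2 and 9.41 CPM (9.06 to 9.76) on day 3. Day 1 stood above both later libraries, by a log2 ratio of −2.32 (−2.39 to −2.25) for day 2 and −2.72 (−2.79 to −2.66) for day 3. A count of Nr4a2 was found in 296 of 582 wells on day 1, 105 of 630 on day 2 and 132 of 882 on day 3. Every well was then thinned to 30000 counts of all mouse genes, which evens total depth and leaves out wells below that number (8, 2 and 7). Mitochondrial counts are part of the 30000, so depth in nuclear-encoded genes still differed between days with the mitochondrial share. After thinning, the shares of wells with Nr4a2 were 30.1% (26.4 to 34.1), 8.60% (6.53 to 11.1) and 6.63% (5.07 to 8.49). The order held in both measures, so more wells held the transcript on day 1. Within day 1, Nr4a2 ran from 0 CPM in the lowest well through a median of 1.63 CPM to 1002 CPM in the highest. No class of wells is known to lack these transcripts, so no background share of wells from free RNA could be set for them.

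Nr4a3, the third receptor of the family, was also highest in the day 1 compartment. Its level was 26.4 CPM on day 1, 10.2 CPM on day 2 and 5.14 CPM on day 3, and the thinned share of wells was 20.6%, 10.4% and 4.91%. The log2 ratio to day 1 was −1.37 (−1.45 to −1.28) for day 2 and −2.36 (−2.45 to −2.27) for day 3. In wells of 25 to 35% mitochondrial counts the ratio of Nr4a3 for day 2 was −0.65, within 2-fold. Nr4a1, induced by many stimuli in macrophages and muscle, was at 10.4, 7.44 and 6.31 CPM, within 2-fold across the days. Its thinned shares of 11.8%, 9.08% and 10.4% have intervals that overlap. The 3 receptors thus did not share a single profile over the libraries.

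The AP-1 genes differed less between days. Fos, a partner of JUN, was at 75.2, 86.0 and 65.9 CPM on days 1, 2 and 3, and its thinned share of wells was 32.6%, 32.0% and 32.5%. Jun was at 106, 109 and 56.9 CPM, and its log2 ratio of day 3 to day 1 was −0.89 (−0.93 to −0.86). Junb was at 16.7, 18.8 and 19.6 CPM. All 3 stayed within 2-fold across the libraries, while Fosb, another FOS family member, was at 6.39, 2.41 and 2.34 CPM. A count of Fosb was present in only 11.9%, 9.21% and 8.16% of wells, and its top well held 19.7%, 33.9% and 19.3% of all Fosb counts on days 1, 2 and 3, so its level rests on few wells.

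Egr1, on chromosome 18 at 34859823 to 34864984, was at 43.1, 47.1 and 35.9 CPM on days 1, 2 and 3, and Ier2, a nuclear regulator of transcription, at 34.5, 34.0 and 25.1 CPM. Atf3, a stress-induced ATF family repressor, was highest on day 2, at 164 CPM (162 to 166), against 102 CPM (100 to 104) on day 1 and 68.1 CPM (67.1 to 69.0) on day 3. Its thinned share of wells had the same order, 40.6%, 55.6% and 35.4%. Atf3 was the only member whose day 3 compartment level was at least 2-fold below that of day 2, by a log2 ratio of −1.27 (−1.29 to −1.24). Nr4a3 and Jun lay just within that bound, at −0.99 and −0.93. With CPM over all genes, mitochondrial ones included, Atf3 was at −0.91 and so within 2-fold.

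Counted over all 10 members, day 2 against day 1 had 0 at least 2-fold higher and 3 lower, namely Nr4a2, Nr4a3 and Fosb, where 4.44% and 1.81% of all genes were higher and lower. The median log2 ratio was 0.01 over the members and 0.13 over all genes. Day 3 against day 1 again had 0 higher and the same 3 lower, beside a background of 4.83% higher and 5.74% lower, with medians of −0.65 and −0.11. Day 3 against day 2 had 0 higher and 1 lower, beside 3.03% and 8.86%. These counts depended on the wells taken. In wells of 25 to 35% mitochondrial counts, 2 members were higher and 1 lower on day 2 than on day 1, and on day 3 there were 5 lower than on day 1 and 6 lower than on day 2. Over all kept wells 7 were lower on day 3 than on day 1 and 5 lower than on day 2, while with CPM over all genes 0 were lower on day 3 than on day 2. These comparisons share libraries. Nr4a1 and Fosb did not reach a mean of 10 CPM in any of the 3, nor did Nr4a3 in the last, so 8, 8 and 7 members passed that filter. Scaling by the total over all genes moves the median gene of day 3 against day 1 from −0.11 to 0.26, and the share of higher among the genes apart from 45.7% to 83.9%. In the same comparison the summed atrial markers of the compartment were 6735 CPM on day 1, 203 CPM on day 2 and 1622 CPM on day 3, and the fibroblast markers were 428, 271 and 222 CPM. The T and NK cell markers were 71.0, 20.1 and 9.88 CPM, in the same order as Nr4a2, and the erythroid markers 37.5, 375 and 345 CPM. An unnamed cluster with 523 of its 560 wells from day 1 had Trbc2, Ccl5 and Nr4a2 as its leading genes. Without atrial-like wells the log2 ratio of Nr4a2 to day 1 was −2.39 on day 2 and −2.79 on day 3, as large as with them. The part of atrial transcripts in the remaining wells, and of the fibroblast, T and NK cell and erythroid markers, was not tested.

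**Figure D1:**
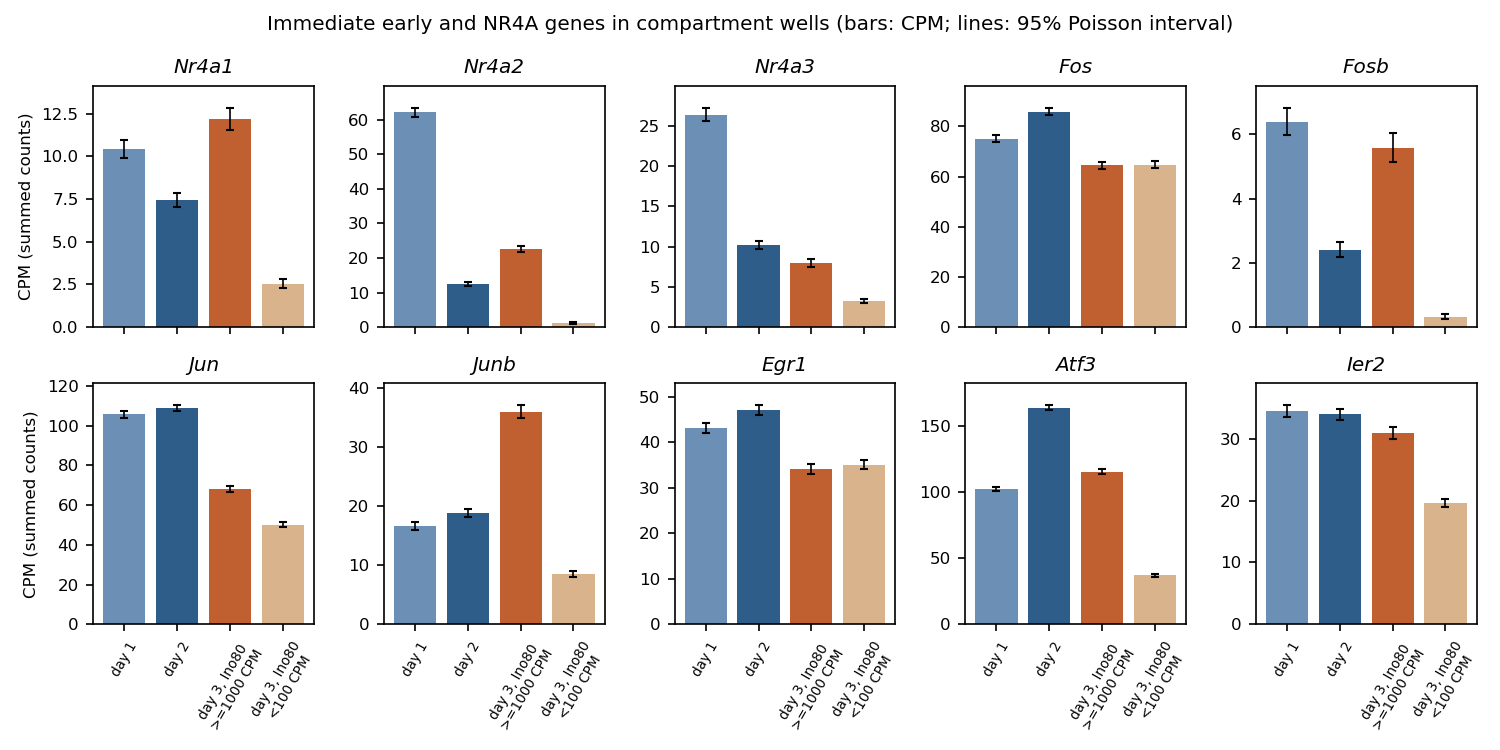
Level of each gene in CPM (vertical axes, from 0, a scale for each gene) in compartment wells of day 1, of day 2 and of the day 3 wells with Ino80 at or above 1000 CPM or under 100 CPM; bars are summed counts and lines are 95% Poisson intervals. Nr4a2 stands at 62.1 CPM on day 1 and at 1.18 CPM in the day 3 wells with low Ino80, while Fos lies between 64.5 and 86.0 CPM in all 4 groups.

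The day 3 wells with high and low Ino80 come from the same library, and 6 of the 10 members were at least 2-fold higher in the high wells and 0 lower, where 23.2% of all genes were higher and 11.5% lower. The median log2 ratio was 1.46 over the members and 0.26 over all genes. Only 7 members had a mean of 10 CPM or more, and Nr4a1, Nr4a3 and Fosb, which did not, are among the 6. Of the 7, Nr4a2 and Junb were under 10 CPM in the low wells and passed through the high wells alone. The split is by Ino80, so the high value of Ino80 in these wells is no finding.

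All 3 NR4A receptors were higher in the high wells. Nr4a2 was at 22.6 CPM (21.7 to 23.5) in the high wells and 1.18 CPM (1.03 to 1.36) in the low wells, a log2 ratio of 4.26 (4.05 to 4.47). Its thinned share of wells was 12.1% (9.07 to 15.7) against 2.07% (0.953 to 3.90). Nr4a1 was at 12.2 CPM against 2.54 CPM, a log2 ratio of 2.26 (2.10 to 2.42), with thinned shares of 16.9% and 4.84%. In the thinned shares, high and low wells had intervals that do not overlap for either gene. Nr4a3 was at 7.93 CPM against 3.26 CPM, a log2 ratio of 1.28, but 1 well gave 70.9% of its counts in the low wells. Without the well of most counts in each group its log2 ratio was 2.90, and its thinned shares were 9.09% and 1.15%.

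The AP-1 genes divided between those apart and those not. Fosb was at 5.57 CPM against 0.316 CPM, a log2 ratio of 4.14 (3.74 to 4.57), and Junb at 36.1 CPM against 8.50 CPM, a log2 ratio of 2.08 (2.00 to 2.17). Junb was found in 40.2% (35.3 to 45.2) of thinned high wells and 12.4% (9.49 to 15.9) of low wells. Fos was at 64.5 CPM and 64.8 CPM, a log2 ratio of −0.01 (−0.05 to 0.03), so Fosb and Junb stood apart between the wells where Fos did not. Jun was at 68.3 CPM against 50.2 CPM, a log2 ratio of 0.44 (0.40 to 0.49), and its thinned shares were 38.4% and 37.1%.

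Atf3 was at 115 CPM against 36.9 CPM, a log2 ratio of 1.64 (1.60 to 1.69), and was found in 49.0% of thinned high wells and 24.2% of low wells. Ier2 was at 30.9 CPM against 19.6 CPM, a log2 ratio of 0.66 (0.59 to 0.73). Egr1 was at 34.1 CPM against 35.1 CPM, a log2 ratio of −0.04 (−0.10 to 0.02), and its thinned share was lower in the high wells, 23.0% (18.9 to 27.4) against 31.3% (27.0 to 35.9). Fos and Egr1 thus stood level in summed counts of these compartment wells while the Nr4a genes, Fosb, Junb and Atf3 did not. With median-of-ratios scaling, which moves the median gene to −0.32, 5 members stay at least 2-fold higher, the log2 ratio of Nr4a3 is 0.71 and those of Jun, Fos and Egr1 are −0.13, −0.58 and −0.61.

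**Figure D2:**
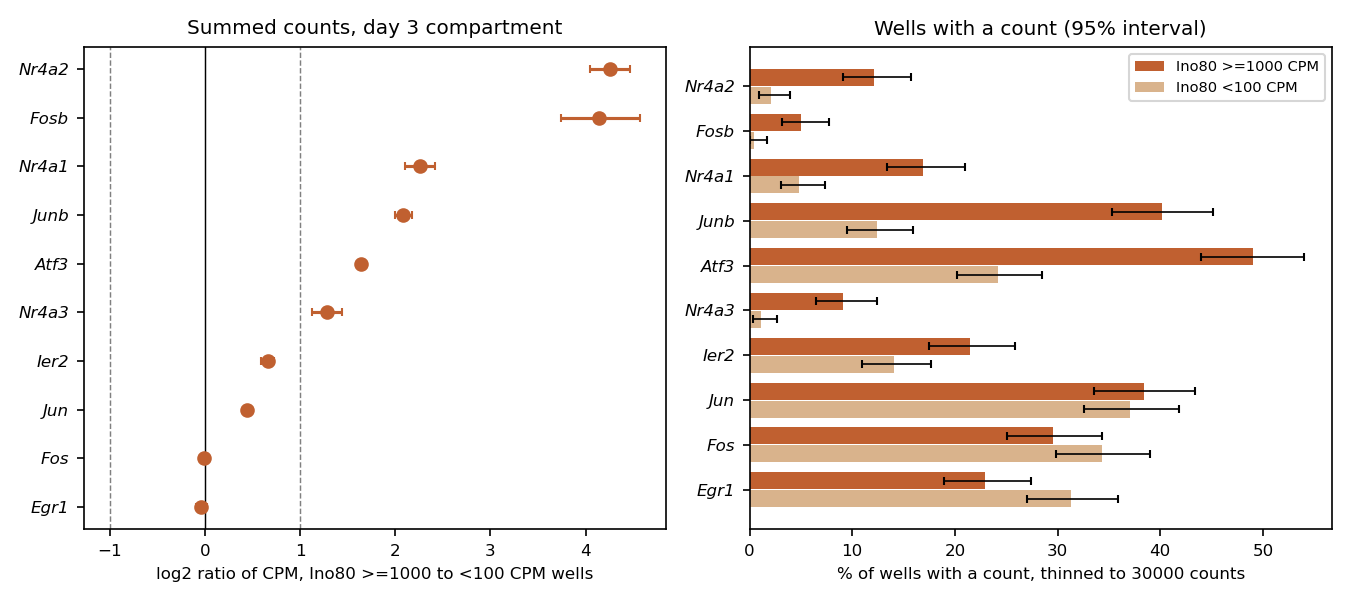
Left, log2 ratio of CPM of each gene in day 3 compartment wells with Ino80 at or above 1000 CPM to those under 100 CPM, with 95% intervals and dashed lines at a 2-fold difference; right, the share of wells with a count after thinning, from 0, with 95% intervals. Nr4a2 is at 4.26 and Fos at −0.01 on the left, and Junb is found in 40.2% and 12.4% of wells on the right.

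Set beside the earlier days, the high wells of day 3 held 2 members at least 2-fold below day 1, Nr4a2 (log2 ratio −1.46) and Nr4a3 (−1.74), and 1 above, Junb (1.11), beside 12.9% of genes lower and 13.4% higher. Against day 2 the high wells had 1 member higher, Fosb (1.21), and 0 lower, beside 9.18% and 14.1%. By CPM over nuclear-encoded genes, the low wells were lower than day 1 for all 10 members. Of the 10, 6 were at least 2-fold lower and 0 higher, beside 11.6% of genes lower and 3.89% higher. The smallest difference was a log2 ratio of −0.21. The median log2 ratio over members and over all genes was −1.27 and −0.24 against day 1, and −1.35 and −0.38 against day 2. CPM over all genes, which raised the median gene of day 3 against day 1, was not tried for the low wells. Against day 2 the low wells were 2-fold lower for 7 and higher for 0, beside 18.8% and 3.55%. Some of these members did not reach the mean of 10 CPM that the background requires. They were Nr4a1 and Fosb for the low wells against day 1, where 8 members passed. Against day 2 they were Nr4a1, Nr4a2, Nr4a3 and Fosb for the low wells, where 6 passed, and Fosb for the high wells. These comparisons share libraries with those above.

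Several other quantities moved with the split. The summed macrophage markers were 195 CPM in the high wells and 34.1 CPM in the low wells, the fibroblast markers 319 and 164 CPM, the endothelial markers 1592 and 1274 CPM, and the ventricular cardiomyocyte markers 76647 and 132791 CPM. The atrial markers were 2523 and 1054 CPM, the erythroid markers 602 and 195 CPM, the T and NK cell markers 22.3 and 2.27 CPM, and the neutrophil markers 9.47 and 36.8 CPM. Of the 10 listed macrophage markers, 4 passed the 10 CPM filter, which takes the mean of both sets and so favours genes high in either set. These 4 were at least 2-fold higher in the high wells, among them Csf1r, at 79.4 against 2.46 CPM, which passed through the high wells alone. The direction of the other listed markers is not given, and 0 of the 10 were at 0 in either set. The median count per well was 306900 in the high wells and 437537 in the low wells, and the median mitochondrial share 19.7% and 22.2%. In wells with under 50 CPM of macrophage markers, 161 high and 380 low, the summed markers were 18.5 and 10.3 CPM and 6 members were again at least 2-fold higher. There Nr4a2 was at 31.1 against 1.26 CPM, Junb at 39.2 against 8.67 CPM and Fosb at 6.58 against 0.308 CPM. In the same wells the log2 ratios of Fos and Egr1 were 0.31 and 0.41. With wells thinned to 30000 counts the log2 ratio was 2.10 for Nr4a1, 3.21 for Nr4a2, 2.10 for Junb and 1.55 for Atf3. In wells of 15 to 25% mitochondrial counts it was 2.35 for Nr4a1, 4.29 for Nr4a2, 2.16 for Junb and 1.68 for Atf3, but 0.81 for Nr4a3. The part of the other marker lists in the split was not tested.

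Macrophage-like wells, 97, 81 and 87 on the 3 days, and fibroblast-like wells, 147, 126 and 80, were named from marker genes of those cells. The summed macrophage markers of macrophage-like wells were 7083, 7733 and 3121 CPM, and the fibroblast markers of fibroblast-like wells 8931, 8483 and 5629 CPM. Both classes also held cardiomyocyte transcripts: ventricular markers summed to between 91429 and 95788 CPM in macrophage-like wells, against 110714 to 115754 CPM in the compartment. Ino80 was at 2446 CPM in day 1 macrophage-like wells and 2313 CPM in day 1 fibroblast-like wells. How much of a member's count in these wells came with the cardiomyocyte transcripts was not tested. Since the classes were clustered from the same wells, with Fos the single member among the 2000 variable genes used, differences between classes are a description.

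Fos, Fosb, Egr1, Junb and Ier2 were at least 2-fold above the compartment in both classes on days 1 and 2. Fos was at 630, 304 and 189 CPM in macrophage-like wells and at 325, 292 and 94.4 CPM in fibroblast-like wells on days 1, 2 and 3. Egr1 was at 341, 271 and 91.5 CPM in macrophage-like wells and at 409, 378 and 142 CPM in fibroblast-like wells. Both genes were lowest on day 3 in each class, where the class markers were lowest as well. Ier2 was at 169, 176 and 89.6 CPM in macrophage-like wells and at 173, 286 and 51.2 CPM in fibroblast-like wells. Junb was at 116, 95.5 and 80.6 CPM in macrophage-like wells and at 110, 123 and 32.0 CPM in fibroblast-like wells.

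Against the compartment of the same library, macrophage-like wells had 7, 6 and 6 of 10 members at least 2-fold higher on days 1, 2 and 3, beside 16.2%, 14.2% and 9.39% of all genes. They had 0, 1 and 1 lower, beside 6.61%, 7.82% and 4.12%: Nr4a2 on day 2 and Nr4a3 on day 3. Fibroblast-like wells had 6, 6 and 4 higher, beside 11.7%, 11.5% and 11.7%, and 0 lower on each day, beside 4.26%, 4.29% and 4.10%. Among the members counted, Fosb on day 2 had a mean of both groups under 10 CPM in either class. So did Nr4a2 on day 2 and Nr4a3 on day 3 in macrophage-like wells. Jun and Atf3 were at least 2-fold higher in macrophage-like wells of day 1, at 271 and 250 CPM, but within 2-fold in fibroblast-like wells, at 161 and 111 CPM. Nr4a1 was 2-fold higher in fibroblast-like wells of every day, at 27.6, 27.7 and 17.6 CPM. Thinned to equal total counts, Fos was found in 76.8%, 71.6% and 69.0% of macrophage-like wells, against 32.6%, 32.0% and 32.5% of compartment wells.

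**Figure D3:**
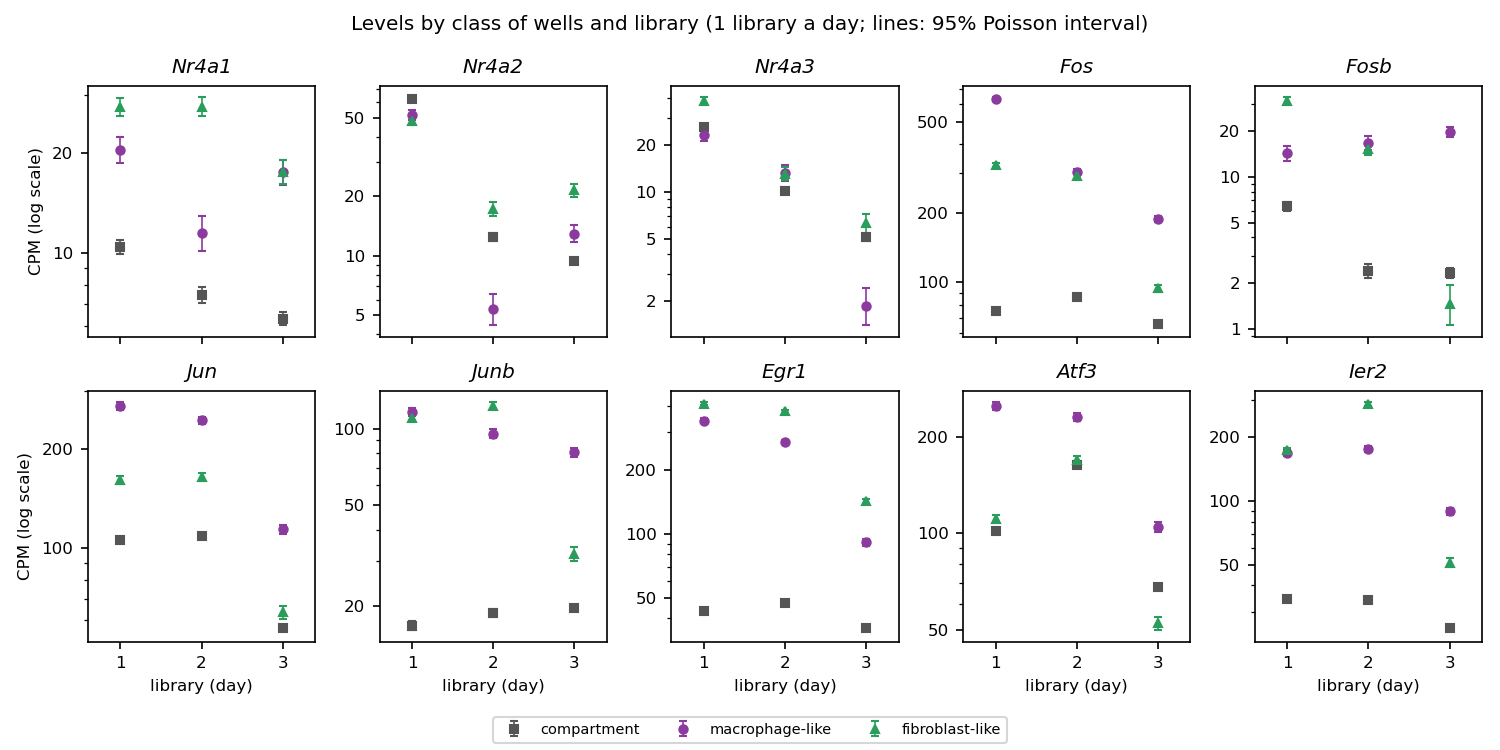
Level of each gene in CPM (log scale) by day of library for compartment wells (squares), macrophage-like wells (circles) and fibroblast-like wells (triangles), with 95% Poisson intervals. Fos is at 630 CPM in macrophage-like and 75.2 CPM in compartment wells of day 1, whereas Nr4a2 is at 51.6 and 62.1 CPM.

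Nr4a2 did not follow that order of classes. It was at 51.6, 5.37 and 13.0 CPM in macrophage-like wells and at 48.2, 17.3 and 21.5 CPM in fibroblast-like wells on days 1, 2 and 3. In endothelial-like wells it was at 57.5 CPM on day 1 and 9.14 CPM on day 2. These 4 groups of day 1 wells thus lay between 48.2 and 62.1 CPM, and every one was at least 2-fold lower on day 2. The day 2 log2 ratio to day 1 was −3.26 (−3.55 to −2.99) in macrophage-like wells and −1.48 (−1.61 to −1.34) in fibroblast-like wells. Within macrophage-like wells, day 3 against day 1 had 6 members at least 2-fold lower, beside 20.2% of genes, and 0 higher, beside 10.3%. The fibroblast-like wells form 2 clusters whose shares differed between days: the cluster led by Dcn and Gsn held 146, 122 and 46 of them, and the cluster led by Timp1 and Postn held 1, 4 and 34. Comparisons of days within this class therefore set unlike mixtures of these clusters side by side, and their part was not tested. Within fibroblast-like wells 9 of 10 were lower and 0 higher, beside 15.6% and 10.4%. Day 2 against day 1 had 2 members lower in macrophage-like wells, Nr4a2 and Fos, and 3 in fibroblast-like wells, Nr4a2, Nr4a3 and Fosb, with 0 higher in either. The background was 12.3% lower and 14.6% higher in macrophage-like wells, and 7.8% and 12.3% in fibroblast-like wells. Day 3 against day 2 had 4 lower and 1 higher, Nr4a2, in macrophage-like wells, beside 20.1% and 8.01%. In fibroblast-like wells it had 8 lower and 0 higher, beside 18.0% and 7.78%, with all but Nr4a1 and Nr4a2 lower. Of the members counted for day 3 against day 2, some had a mean under 10 CPM. They were Nr4a2 and Nr4a3 in macrophage-like wells and Nr4a3 and Fosb in fibroblast-like wells.

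Within these classes the day 3 wells also divided by Ino80. In macrophage-like wells, 43 high and 35 low, 6 members were at least 2-fold higher in the high wells and 0 lower, beside 33.1% and 16.6% of genes. The higher ones were Nr4a1, Nr4a2, Nr4a3, Fosb, Junb and Atf3, the same 6 as in the compartment. Fos and Egr1, level in the compartment, had log2 ratios of 0.82 and 0.96 in macrophage-like wells. In fibroblast-like wells theirs were 0.64 and 0.32. In macrophage-like wells Nr4a2 was at 29.7 CPM against 0.868 CPM, the latter from a single well, and Atf3 at 194 against 46.1 CPM. Marker sums differed there too. Ventricular markers were at 67890 against 118658 CPM, erythroid markers at 1126 against 49.9 CPM and T and NK cell markers at 112 against 0.186 CPM. Macrophage markers were at 3409 against 2897 CPM. The part of cardiomyocyte and other transcripts in this split was not tested. In fibroblast-like wells, 31 high and 42 low, 3 were higher, Nr4a2, Nr4a3 and Junb, and 0 lower, beside 37.0% and 19.8% of genes, so the share of members was not above the background. The log2 ratio of Nr4a2 in them was 2.27 (2.01 to 2.54), and 1 well gave 82.5% of its counts in the low wells. In both classes Nr4a3, among the higher members, had a mean under 10 CPM.

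**Figure D4:**
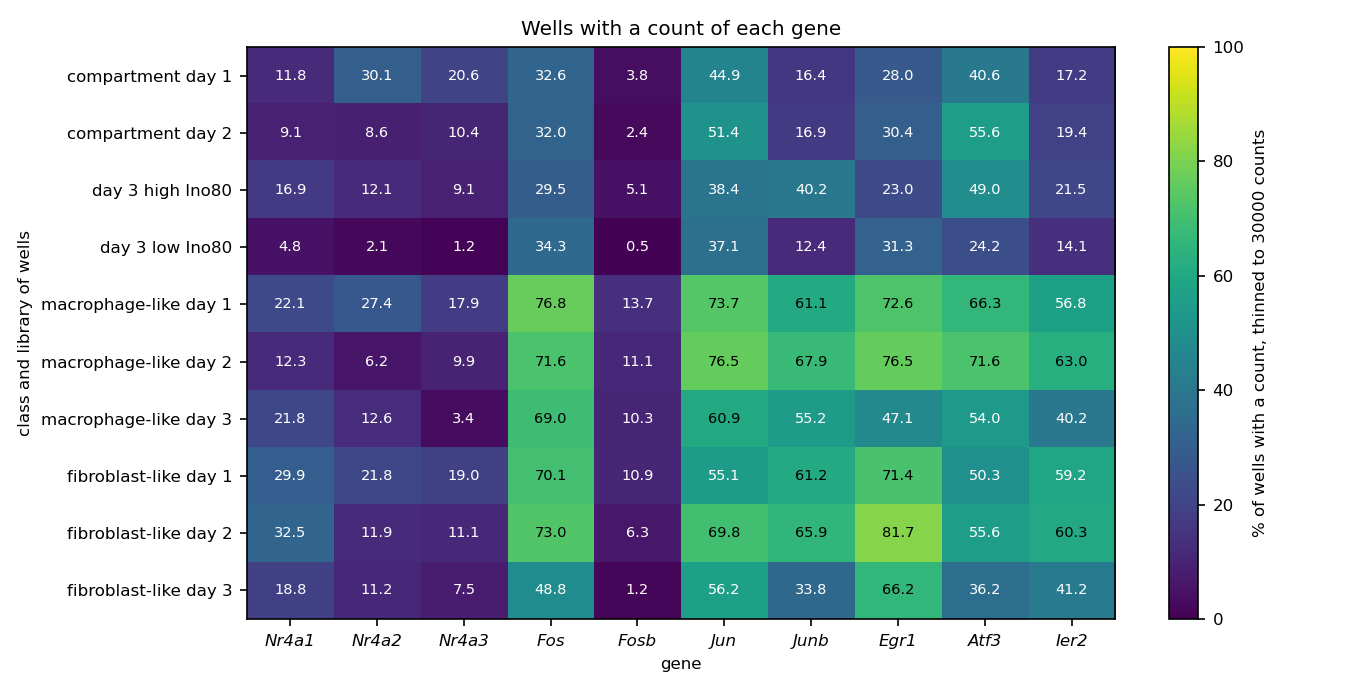
Share of wells (in %, colour from 0 to 100) with a count of each gene (columns) after thinning every well to 30000 counts, by class and library (rows). Egr1 is found in 71.4% to 81.7% of fibroblast-like wells of days 1 and 2 and in 23.0% to 31.3% of the compartment groups shown, while Fosb is at or below 13.7% in every row shown.

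More members had a count in the same well in macrophage-like and fibroblast-like wells than in compartment wells. Such shares also rise with the share of wells that hold each gene, and no expected value was computed. After thinning, the median number of members with a count was 2 in the compartment of each day, 2 in the high wells and 1 in the low wells of day 3. At least 3 members were found in 44.6%, 42.4% and 33.1% of compartment wells on days 1, 2 and 3, in 91.6%, 92.6% and 78.2% of macrophage-like wells and in 81.0%, 90.5% and 56.2% of fibroblast-like wells. At least 5 members were found in 10.1%, 8.92% and 4.57% of compartment wells. The shares were 63.2%, 61.7% and 32.2% in macrophage-like wells and 54.4%, 54.8% and 28.8% in fibroblast-like wells. Over 10 groups of wells, which share libraries and differ in class, Pearson's r of log levels was 0.95 for Junb with Ier2, 0.95 for Egr1 with Ier2 and 0.92 for Fos with Ier2. It was 0.73 for Nr4a2 with Nr4a3 and 0.24 for Nr4a2 with Ier2. Across single thinned compartment wells of days 1, 2 and 3, Spearman's rho was far smaller. It was 0.01, 0.13 and 0.10 for Junb with Ier2 and 0.12, 0.13 and 0.06 for Egr1 with Ier2. For Fos with Ier2 it was 0.05, 0.12 and 0.09, and for Nr4a2 with Nr4a3 0.09, 0.05 and 0.07. In macrophage-like wells of day 1 it was 0.15, 0.28, 0.39 and −0.01 for the same 4 pairs. Among 4523 genes over the same 10 groups, the pattern of Nr4a2 was most like Trappc6b (0.87), Srsf11 (0.87) and Ccdc9b (0.85), that of Atf3 like Serinc3 (0.96), Btg2 (0.95) and Ier5 (0.95), and that of Egr1 like Nupr1 (0.97) and Rnase4 (0.97).

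Related genes were read from lists of AP-1 and ATF partners, other immediate early factors, feedback regulators, secreted early genes, upstream factors and heat shock genes. Between the day 3 wells with high and low Ino80, 6 of the 11 partners that passed the 10 CPM filter (17 listed) were at least 2-fold higher and 0 lower, beside 23.2% and 11.5% of all genes. Mafk, a small MAF protein, was at 38.1 CPM in the high wells and 2.85 CPM in the low wells, and Atf4, the stress response factor, at 121 and 37.8 CPM. Other immediate early factors had 6 of 11 passed (21 listed) higher and 0 lower, among them Klf10 at 47.5 against 4.18 CPM and Csrnp1 at 43.6 against 4.57 CPM. Klf9 and Klf2 were within 2-fold, at 51.6 against 91.5 CPM and 29.5 against 25.6 CPM. The medians of these lists were 1.27 and 1.53, beside 0.26 over all genes. The filter takes the mean of both sets and so favours genes high in either set, in the lists and among all genes. Mafk, Klf10 and Csrnp1, under 10 CPM in the low wells, passed through the high wells alone.

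In the same split, with the same 23.2% of all genes higher and 11.5% lower, the list of feedback regulators had 8 of 13 passed (27 listed) higher and 0 lower. Gadd45b was at 67.3 against 6.30 CPM and Gadd45g at 250 against 58.5 CPM, whereas Dusp1, the phosphatase of MAP kinases, was at 27.8 against 39.0 CPM. Gadd45b, too, passed the filter through the high wells alone. Secreted and signalling genes had 7 of 9 passed (18 listed) higher and 1 lower. Hbegf, a growth factor of the EGF family, was at 1030 against 67.4 CPM, Ccn2 at 111 against 16.2 CPM, Ccn1 at 46.1 against 45.7 CPM and Vegfa at 68.8 against 143 CPM. Upstream factors had 1 of 12 passed (23 listed) higher and 2 lower, the latter Mef2a, at 70.1 against 211 CPM, and Mef2c, with a log2 ratio of −1.80. Heat shock genes, often raised by tissue dissociation, had 5 of 12 higher and 0 lower. Hspb1 was at 4878 against 482 CPM and Hspa1a at 549 against 28.1 CPM, the latter uncertain because Hspa1b is nearly identical.

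Between the day 2 and day 1 compartments, 4.44% of all genes were higher and 1.81% lower, and the lists had fewer genes apart than in the split by Ino80, as all genes did. AP-1 and ATF partners had 0 of 10 passed at least 2-fold apart, and other immediate early factors had 2 of 12 higher, Ier5 at 64.7 against 24.2 CPM and Ier3 at 50.2 against 21.0 CPM. Feedback regulators had 2 of 14 higher and 1 lower: Trib1 at 38.9 against 14.2 CPM, Btg2 at 145 against 71.7 CPM and Rgs2 at 12.3 against 33.4 CPM. Secreted genes had 5 of 10 higher and 0 lower, among them Hbegf at 498 against 213 CPM and Adamts1 at 71.5 against 20.6 CPM. Heat shock genes had 1 of 12 higher, Hsp90aa1 at 710 against 340 CPM, and upstream factors 0 of 13 apart. So Nr4a2, Nr4a3 and Fosb stood lower on day 2 while Hbegf, Btg2, Ier3 and Ier5 stood higher, in the same summed wells. For Nr4a3 and Fosb the 2-fold difference was not kept in wells of 25 to 35% mitochondrial counts.

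Between the day 3 and day 1 compartments, where 4.83% of all genes were higher and 5.74% lower, AP-1 and ATF partners had 0 of 11 passed at least 2-fold apart, and other immediate early factors had 1 of 11 higher and 2 lower. Ier3 was at 43.4 against 21.0 CPM, Nfil3 at 23.5 against 55.1 CPM and Klf4 at 19.7 against 39.9 CPM. Secreted genes had 5 of 9 higher and 0 lower, among them Adamts1 at 57.3 against 20.6 CPM. Heat shock genes had 4 of 12 higher and 0 lower, with Hspb1 at 2202 against 691 CPM.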

How the data were processed

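RNA of single mouse heart cells was measured in 3 iCELL8 libraries. Per the submitters' processing notes, cutadapt, STAR and featureCounts were used with mm10; versions and the strand setting are not stated there. The authors deposited whole-number read counts per gene and well, with no molecular identifiers described. Of 3394 wells, 3376 with at least 1000 counts and 300 genes were kept. The 101 features that are not mouse genes were left out. Wells were clustered with scanpy 1.11.5 on 2000 variable genes, with no doublet caller, and a cluster was named from at least 3 raised markers of a type. Counts were summed per group and divided by the nuclear-encoded total to give CPM. Intervals are exact Poisson, binomial or Clopper-Pearson at 95%, and cover counting error only. Median depth per well was 316120 to 360693 counts. Calls are at least 2-fold, read against genes with a mean of 10 CPM. The statistics were tested on simulated data. These were independent Poisson counts per gene, without wells or repeated reads, so the check does not cover spread between wells.

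Members and lists were chosen with earlier results of these data known. All 10 members are named. From each other list and comparison, the 2 highest and 2 lowest genes by log2 ratio with 5 CPM added, among those with a mean of at least 20 CPM, could be named, and for each member the 3 genes of most like pattern. Alternatives covered scaling, filters, thinning, well quality, clustering and Ino80 bounds. Some genes that these rules name are not reported here.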

Additional observations from a re-analysis of the deposited data

Results flagged for a closer look

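Some members differed in the sign of their log2 ratio between days from 1 class of wells to another, with counting intervals on both sides of 0. None of these differences was tested, since each class has 1 library a day. Fos on day 2 against day 1 was at 0.19 in the compartment and −1.05 in macrophage-like wells, a difference of −1.25.

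Fosb, which was counted in few wells, accounts for 5 of the 9 cases. On day 2 against day 1 it was at −1.41 in the compartment and 0.23 in macrophage-like wells, a difference of 1.63, and at −1.05 in fibroblast-like wells, which differ from macrophage-like wells by −1.28. On day 3 against day 1 it was at −1.45 in the compartment and 0.47 in macrophage-like wells, a difference of 1.92. Fibroblast-like wells were at −4.44 in that comparison and differ from macrophage-like wells by −4.91. On day 3 against day 2 Fosb was at 0.24 in macrophage-like and −3.39 in fibroblast-like wells, a difference of −3.63. A single well gave 43.7% of the day 3 macrophage-like counts of Fosb.

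Junb on day 3 against day 1 was at 0.23 in the compartment and −1.78 in fibroblast-like wells, a difference of −2.01. Of the fibroblast-like wells, 34 of 80 on day 3 but 1 of 147 on day 1 and 4 of 126 on day 2 lay in the cluster led by Timp1 and Postn, which bears on every fibroblast-like value given here and was not tested. Nr4a1 on day 3 against day 2 was at 0.61 in macrophage-like and −0.66 in fibroblast-like wells, a difference of −1.27. Nr4a2 on day 3 against day 2 was at −0.41 in the compartment and 1.27 in macrophage-like wells, a difference of 1.68.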

How the results depend on the processing

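No paired analysis was possible because each group has 1 library. Of the called member values under all alternatives, 30 of 33 stayed at least 2-fold for day 2 against day 1, 31 of 33 for day 3 against day 1, 10 of 11 for day 3 against day 2, 79 of 84 for high against low Ino80, 159 of 168 for macrophage-like and 122 of 128 for fibroblast-like wells against the compartment. The 1 reversal was Fosb on day 2 against day 1, at 0.11 instead of −1.41 in wells of 25 to 35% mitochondrial counts, where 2 members were higher and 1 lower. In those wells 5 members were lower on day 3 than on day 1 and 6 lower than on day 2. Over all kept wells these counts were 7 and 5. The count of members lower on day 3 than on day 2 was 0 with CPM over all genes, and 2 with the mean of wells, without the well of most counts, with stricter wells or with 1000 variable genes. Between high and low Ino80, 3 were higher in fibroblast-like wells alone, an alternative chosen after seeing the data, as were macrophage-like wells alone and wells low in macrophage markers. Nr4a3 was at 0.81 in wells of 15 to 25% mitochondrial counts. Over the 3 days, 2 values were lower in macrophage-like wells than in the compartment, against 0 by the mean of wells or after thinning and 1 with stricter wells or 1000 variable genes; in fibroblast-like wells, 1 was lower after thinning. The causes were not tested.

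Counts of all genes apart moved with the filter, which changes the genes counted. With a mean of at least 5 CPM, day 2 against day 1 gave 510 higher and 248 lower (main 285 and 116), day 3 against day 1 gave 453 and 622 (main 297 and 353), and day 3 against day 2 gave 302 and 895 (main 191 and 558). With no filter these were 6810 and 7373, 5071 and 11277, and 5112 and 9450, and high against low Ino80 gave 11835 and 6000 (main 1387 and 686). CPM over all genes gave 652 and 125 for day 3 against day 1, and 439 and 154 for day 3 against day 2. Median-of-ratios scaling gave 296 and 259 for day 3 against day 2, and 666 and 1462 for high against low Ino80. The share of higher among genes apart was 25.5% for day 3 against day 2, 74.0% with CPM over all genes and 53.3% with median-of-ratios scaling. For day 3 against day 1 it was 62.7% with the latter, and for high against low Ino80 it went from 66.9% to 31.3%. Few wells limit some values: of the 437 wells with low Ino80, 22 held a count of Fosb, 30 of Nr4a3 and 35 of Nr4a2.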
